A study of Homo sapiens with 2 samples.

Results

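The adrenergic core circuit transcription factor genes PHOX2A, HAND1, HAND2, GATA2, GATA3, ISL1, TBX2 and TFAP2B were examined in the NeuroD1 ChIP-seq peak list of IMR-32 cells. A peak was counted for a gene when it overlapped the RefSeq body of the gene or lay up to 50 kb from either end. By this rule 4 of the 8 genes had a peak, against 39.9% of all 20037 protein-coding genes. At these 4 genes lay 10 of the 6183 peaks in the list. PHOX2A, HAND1, HAND2 and TBX2 had a peak, and GATA2, GATA3, ISL1 and TFAP2B had none.

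IMR-32 is a human neuroblastoma cell line with amplified MYCN, and the cells of both libraries were wild-type and carried the same cell line label. The series holds 1 library pulled down with a NeuroD1 antibody and 1 input library, which is chromatin sequenced without the antibody step and which was not analysed here. The study's ChIP-seq methods name an antibody to H3K27Ac where the sample label names one to NeuroD1, so the peaks are NeuroD1 peaks by their label. The study also reports that NeuroD1 motifs were enriched at its NeuroD1 binding sites. It lists its H3K27Ac data as a separate set from another assay, CUT&Tag. With 1 ChIP library there was no replicate and no test between groups, all values describe this library, and the total number of its reads is unknown.

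Neuroblastoma cells of the adrenergic type resemble sympathetic neuroblasts and keep their identity through a set of transcription factors that bind the enhancers of their own genes and of each other. The genes described here belong to this set and encode homeodomain, bHLH, zinc finger, LIM-homeodomain, T-box and AP-2 proteins. NeuroD1 is a proneural bHLH factor that binds E-boxes, short DNA motifs with the letters CANNTG, as a dimer with an E-protein. The study used ChIP-seq to ask whether genes of cell cycle and MYC programs are direct targets of NeuroD1. It also used it to describe NeuroD1 binding in the MYCN region and at the USP1 promoter. Together with RNA-seq, it served to pick USP1 and USP12 as candidate targets. The circuit genes are described here apart from those questions.

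**Figure D1:**
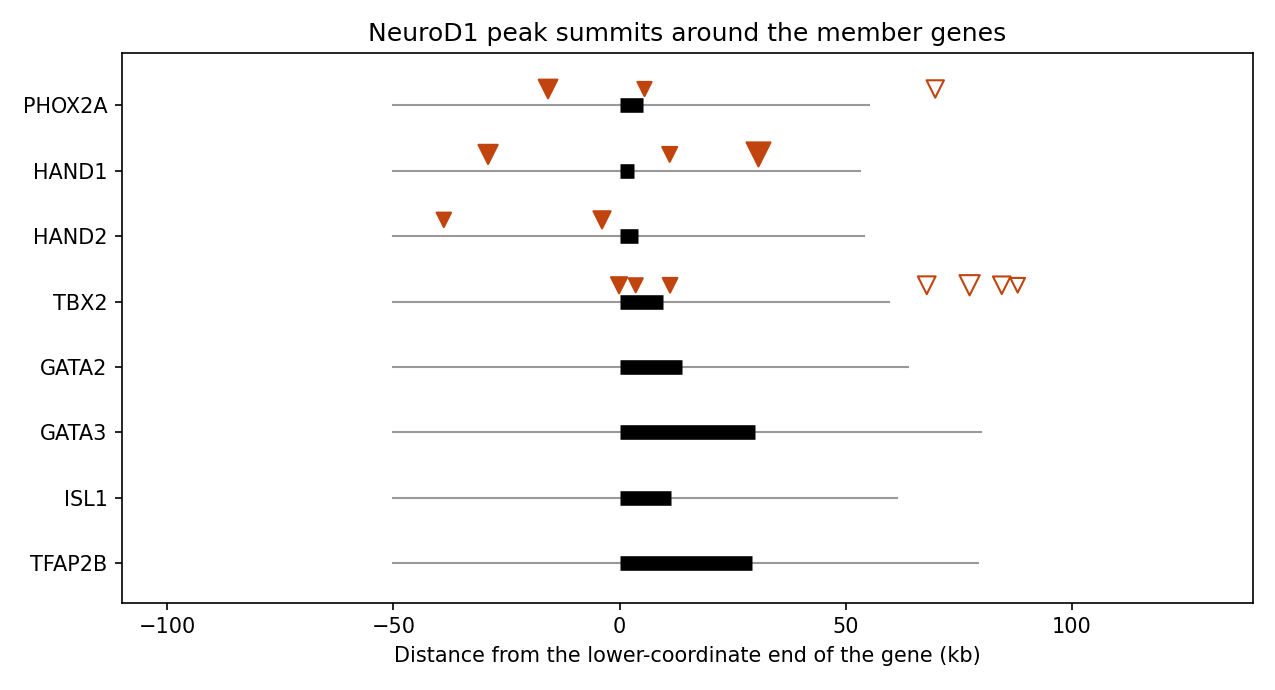
Each line is the region searched for 1 gene, with the gene body in black and the distance from its lower-coordinate end in kb on the x axis. Filled triangles are summits of the 10 peaks within 50 kb, open triangles are summits of peaks further out within 100 kb, and their size follows the fold enrichment. PHOX2A, HAND1, HAND2 and TBX2 carry filled triangles, and GATA2, GATA3, ISL1 and TFAP2B carry no triangle.

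The sequence under a peak could be read where a RefSeq promoter window, 250 bases before to 50 after a gene's start on GRCh38.p14, overlapped it. This was so for 3 of the 10 peaks, over windows of PHOX2A, SAP30L and INPPL1. Of the 8 genes, 7 had a window in the RefSeq table used, and the window of TBX2 was not in it. A peak lay over a window of 1 of the 7 genes, PHOX2A, against 9.55% of all 27305 genes in the table. The first sequence is the stretch of the PHOX2A promoter inside its peak, chr11:72244209-72244426 on the reverse strand. The second is the stretch of the SAP30L promoter inside a peak of the HAND1 region, chr5:154445813-154445996 on the forward strand. The third is the stretch of an INPPL1 promoter inside the other peak of the PHOX2A region, chr11:72223313-72223479 on the forward strand. The fourth is shown for contrast and is the promoter of ISL1 up to its start, chr5:51383198-51383447 on the forward strand, which had no peak. Capitals mark E-boxes.
PHOX2A: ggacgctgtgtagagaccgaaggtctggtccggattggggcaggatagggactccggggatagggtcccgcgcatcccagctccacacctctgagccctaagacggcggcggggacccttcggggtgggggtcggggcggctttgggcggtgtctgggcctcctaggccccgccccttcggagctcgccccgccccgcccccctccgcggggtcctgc
SAP30L: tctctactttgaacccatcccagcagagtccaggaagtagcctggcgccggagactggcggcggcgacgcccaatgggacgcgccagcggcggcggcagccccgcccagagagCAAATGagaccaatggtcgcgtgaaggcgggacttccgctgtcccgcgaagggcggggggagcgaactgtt
INPPL1: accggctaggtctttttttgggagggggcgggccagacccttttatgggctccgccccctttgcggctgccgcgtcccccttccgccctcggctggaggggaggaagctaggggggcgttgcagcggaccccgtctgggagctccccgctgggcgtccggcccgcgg
ISL1: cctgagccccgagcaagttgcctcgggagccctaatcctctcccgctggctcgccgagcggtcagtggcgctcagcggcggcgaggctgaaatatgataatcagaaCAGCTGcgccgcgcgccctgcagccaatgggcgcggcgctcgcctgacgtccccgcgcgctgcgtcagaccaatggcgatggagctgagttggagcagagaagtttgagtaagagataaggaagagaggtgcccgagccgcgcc

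The PHOX2A stretch of 218 bases held no E-box, but it is only part of the peak of 473 bp, whose summit lay 173 bp beyond the end of the window. The SAP30L stretch of 184 bases held 1 E-box, CAAATG, at position 114 counted from the first base shown, and the summit lay at position 85. The INPPL1 stretch of 167 bases held no E-box, and the summit lay 47 bp before its first base. The ISL1 stretch of 250 bases held 1 E-box, CAGCTG, at position 107, although no peak was called there. Over both strands, CANNTG was found in 7 of the 13 promoter windows of the genes and in 68.7% of all 35116 windows. CAGATG or its complement CATCTG was found in 1 of the 13, a TFAP2B window without a peak, and in 14.7% of all windows. CAGCTG, its own complement, was found in 3 of the 13 and in 17.9% of all windows. Both of these are kinds of CANNTG. Among the 2921 windows that lay under a peak anywhere in the list, the shares were 56.8% for CANNTG, 8.73% for CAGATG or CATCTG and 18.7% for CAGCTG. Against all windows, the shares of CANNTG and of CAGATG or CATCTG were lower, and that of CAGCTG was slightly higher. The motif enrichment that the study reports concerns its binding sites as a whole, and it was not tested here. Sequence outside the promoter windows was not analysed here, so the letters at the summits of the other peaks are not known.

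The strongest NeuroD1 peak near a circuit gene lay upstream of HAND1, a bHLH factor of the heart and of the sympathetic lineage. HAND1 (gene ID 9421, chromosome 5, 154474972 to 154478227, reverse strand) had 3 peaks. The highest was called from 154505571 to 154505816, 27.34 kb upstream of the gene, with its summit at 154505705. Its enrichment was 12.04-fold at a −log10 q of 19.3. The fold is the weighted number of ChIP reads at the summit, 0.98 per read, over the number expected from the background. Before dividing, 1 is added to both. The background is the larger of the local and the genome-wide level. At the summit 24 ChIP reads overlapped (exact Poisson interval at 95%, 15.4 to 35.7), against 1.04 reads of background. If the background is taken as exact, these limits give an enrichment of 7.89-fold to 17.7-fold. By fold enrichment it ranked 518 of 6183, so 91.6% of the peaks in the list were lower. HAND1 was its nearest protein-coding gene, and the nearest gene of any kind was the pseudogene LOC100271907 at 8869 bp.

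The 2 other peaks of HAND1 lay on either side of the gene. The peak from 154486041 to 154486228 lay 7814 bp upstream and was enriched 4.64-fold (−log10 q 3.02) by 12 reads (6.20 to 21.0), and ranked 5723. The peak from 154445813 to 154446037 lay 28.93 kb downstream, over the facing promoters of SAP30L and SAP30L-AS1. SAP30L encodes a protein related to a subunit of the Sin3 histone deacetylase complex. That peak was enriched 7.71-fold (−log10 q 8.34) by 15 reads (8.40 to 24.7), and ranked 2152. Since it is set by 15 reads over the lowest background in the list, the same fold enrichment was shared by 168 peaks, counting this one. Of the 3 peaks at HAND1, only the one at 27.34 kb had an interval that lay above 6.79, the median fold enrichment of all peaks.

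HAND2, the paralog of HAND1 and a factor needed for noradrenergic differentiation, had 2 peaks on its downstream side. Both had a fold enrichment below the median of the list. HAND2 (gene ID 9464) lies on chromosome 4 from 173526091 to 173530229 on the reverse strand. The nearer peak, from 173522172 to 173522321, lay 3770 bp beyond the gene, was enriched 6.18-fold (−log10 q 5.11) by 12 reads (6.20 to 21.0) and ranked 4139. The further peak, from 173487154 to 173487328, lay 38.76 kb away within the gene SCRG1. It was enriched 4.34-fold (−log10 q 1.62) by 8 reads (3.45 to 15.8), and ranked 5874. By −log10 q it ranked 6163 of 6183, and no peak with solved reads in the list had fewer. SCRG1 was the nearest protein-coding gene of both peaks. No peak lay in the body of HAND2-AS1, the long antisense RNA gene that starts within HAND2 and runs for 62656 bp away from these peaks.

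PHOX2A, a homeodomain factor that activates the genes of noradrenaline synthesis, was the only one of the 7 genes with a known promoter window that had a peak there. TBX2 had no window and could not be counted. PHOX2A (gene ID 401) lies on chromosome 11 from 72239077 to 72244176 on the reverse strand. The promoter peak, from 72244209 to 72244681, began 33 bp upstream of the start of the gene, and its summit lay 423 bp upstream. It was enriched 4.17-fold (−log10 q 3.40) and ranked 5937, so 3.66% of the peaks in the list were lower. The summit held 16 reads (9.15 to 26.0), as many as the median of 16 reads over all peaks, but over a background of 3.0 reads, and the background was lower at 91.0% of the peaks. With the background taken as exact, the limits of the reads give an enrichment of 2.49-fold to 6.62-fold. The other peak of the region, from 72223157 to 72223479, lay 15.60 kb downstream of PHOX2A and 84 bp from INPPL1, which encodes an inositol phosphatase, and overlapped the INPPL1 promoter window shown above. It was enriched 7.29-fold (−log10 q 7.75) by 15 reads (8.40 to 24.7) over a background of 1.15, and ranked 2532.

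TBX2, a T-box repressor of cell cycle inhibitor genes, was the only circuit gene with a peak in its body, and its 3 peaks were the closest group. TBX2 (gene ID 6909) lies on chromosome 17 from 61399843 to 61409466. The first peak, from 61399659 to 61399841, ended 2 bp before the lower-coordinate end of the gene, between TBX2 and the long RNA gene TBX2-AS1, and was enriched 5.44-fold (−log10 q 5.75). Its summit lay 100 bp from that end. No strand or promoter window was available for TBX2, so a promoter position of this peak was not assessed and is not excluded. The second, from 61403327 to 61403477 within the gene, was enriched 4.12-fold (−log10 q 4.38). The third, from 61410924 to 61411147, lay 1458 bp beyond the other end and 604 bp from the long RNA gene LINC02875, and was enriched 4.49-fold (−log10 q 3.65).

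The ranks of the 3 TBX2 peaks were 5006, 5959 and 5829, although their summits held 17 (9.90 to 27.2), 20 (12.2 to 30.9) and 15 (8.40 to 24.7) reads. Their implied backgrounds were 2.25, 4.0 and 2.50 reads, against a median of 1.28 over all peaks. Over the 16 peaks within 1 Mb of TBX2 the background ranged from 2.03 to 4.0 with a median of 2.80, and over the 581 solved peaks of chromosome 17 the median was 2.37. The part of the raised background in the low fold enrichment of the TBX2 peaks was not tested. By −log10 q the 3 peaks ranked higher, at 4260, 5091 and 5625.

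**Figure D2:**
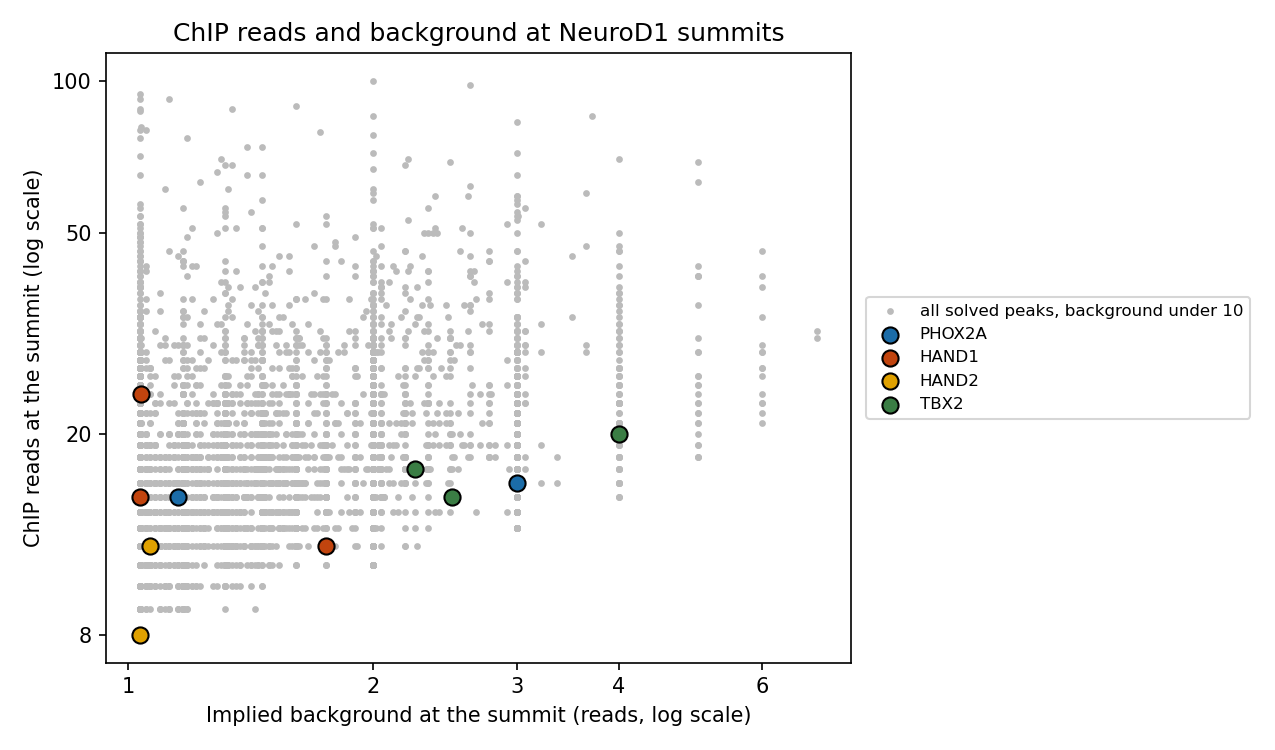
ChIP reads against the implied background at each summit, both on log scales, for the solved peaks with a background under 10 (gray) and for the 10 peaks near circuit genes (colored by gene). The 3 TBX2 peaks and the PHOX2A promoter peak sit at backgrounds from 2.25 to 4.0, and the highest HAND1 peak has 24 reads at a background of 1.04.

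**Figure D3:**
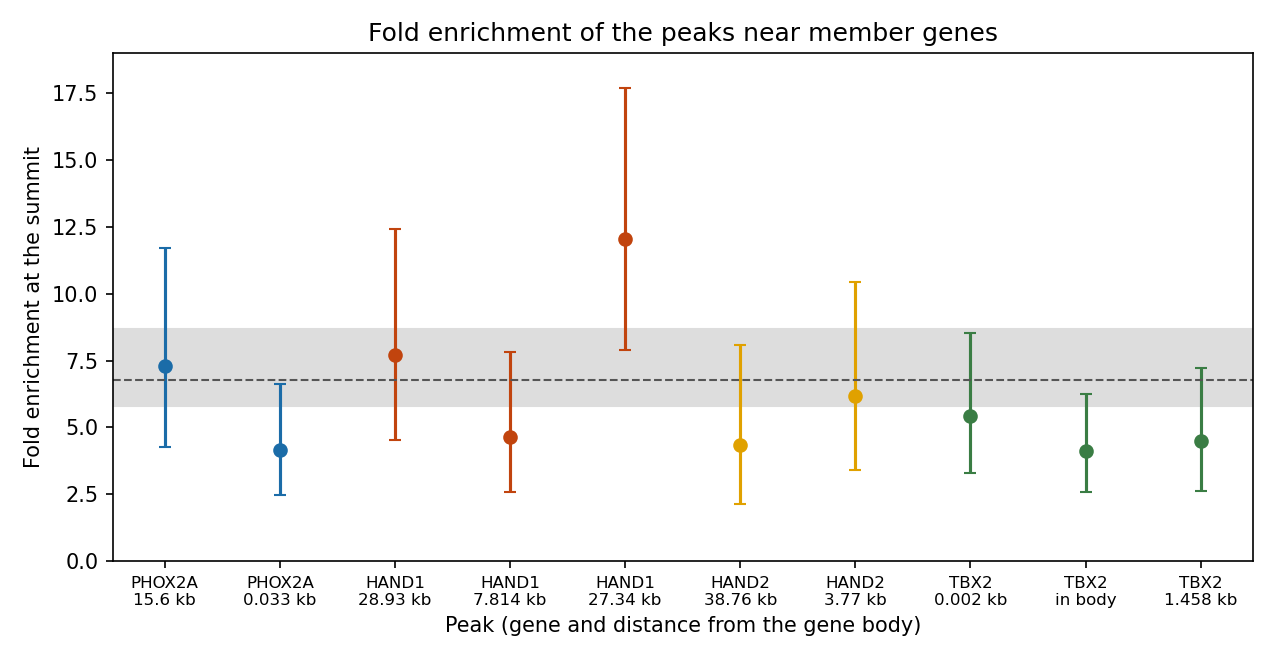
Fold enrichment of the 10 peaks, labelled by gene and by distance from the gene body. Bars are 95% exact Poisson intervals of the reads with the background held fixed, the dashed line is the median of all peaks (6.79) and the gray band spans their quartiles (5.79 to 8.68). The HAND1 peak at 27.34 kb is the only one whose interval lies above the line.

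As a group, the 10 peaks had a median fold enrichment of 5.04, against 6.79 over all 6183 peaks. The 10 peaks come from 1 library and are not replicates, so the difference between these medians was not tested. With a −log10 q of at least 5, 5 circuit peaks remained, with a median of 7.29 against 7.52 for the list. Among peaks enriched at least 5-fold, 5 circuit peaks remained, with 7.29 against 7.23, although this filter acts on the fold itself. The fold enrichment of all 10 peaks went from 4.12 to 12.04. Of them 7 lay below the list median of 6.79, and 6 of these below the lower quartile of 5.79. Only 1 lay above the upper quartile of 8.68. With the background taken as exact, the intervals of 7 peaks included the list median, those of 2 lay below it and that of 1 lay above it. Error in the background was not counted in these intervals. The 2 peaks below the list median, at the PHOX2A promoter and within TBX2, had implied backgrounds of only 3.0 and 4.0 reads. Their place below it thus rests on small background values taken as exact. Most of the peaks could not be told from a typical peak at this depth. On the same terms, the fold interval of the highest HAND1 peak did not overlap those of 4 of the 9 other peaks. Its interval of reads overlapped those of all 9. Reads per summit ranged from 8 to 24 with a median of 15. The width ranged from 150 to 473 bp with a median of 206 bp, against 220 bp over all peaks.

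The 4 peaks within 3 kb of a circuit gene, at PHOX2A and TBX2, had a median fold enrichment of 4.33 and the 6 further away one of 6.73. The implied background of the near peaks was at least 2.25 and that of the further ones at most 1.75, so nearness and background did not vary separately in this group. Over the whole list, the 2162 peaks over a promoter window had a median fold enrichment of 7.08 and a median background of 1.18, and the 4021 others had 6.77 and 1.31. This split is not the one by distance. The TBX2 peaks, all within 3 kb, overlapped no window, and none was available for TBX2. The SAP30L and INPPL1 promoter peaks, both further than 3 kb from a circuit gene, overlapped one, with fold enrichments of 7.71 and 7.29. The medians of the list and of the circuit peaks therefore describe unlike classes. A circuit gene was the nearest gene for 3 of the 10 peaks and the nearest protein-coding gene for 6.

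GATA2, GATA3, ISL1 and TFAP2B had no called peak within 50 kb, nor within 100 kb. GATA2 and GATA3 are zinc finger factors of the sympathoadrenal lineage, ISL1 is a LIM-homeodomain factor of sensory and sympathetic neurons, and TFAP2B is an AP-2 factor of the neural crest. GATA2 (gene ID 2624, chromosome 3, 128479422 to 128493201) had its nearest peak 355.4 kb away, close to RUVBL1, with a fold enrichment of 9.64. GATA3 (gene ID 2625, chromosome 10, 8045333 to 8075198) had its nearest peak 105.3 kb beyond its higher-coordinate end, from 8180497 to 8180708, with 17 reads and an enrichment of 8.68-fold (−log10 q 10.6). GATA3 was nonetheless the closest protein-coding gene to that peak. TFAP2B (gene ID 7021, chromosome 6, 50818355 to 50847619) had its nearest peak 246.8 kb away on the far side of its paralog TFAP2D, with a fold enrichment of 9.50. ISL1 (gene ID 3670, chromosome 5, 51383448 to 51394730) stood furthest from any peak, 997.7 kb from one with a fold enrichment of 5.16. No peak lay in the bodies of their long RNA genes either, of which GATA3-AS1 lies within GATA3, GATA2-AS1 overlaps GATA2 and ISL1-DT lies beside ISL1.

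A missing peak means that no site passed the caller at this depth. At the lowest background in the list, 1.04 reads, the smallest called summit had 8 reads and a fold enrichment of 4.34. Sites with fewer reads at these genes would not have been called.

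The number of peaks at each of the 4 genes with a peak changed with the distance searched, while GATA2, GATA3, ISL1 and TFAP2B had none at any distance up to 100 kb. With the gene body alone only TBX2 had a peak. With 10 kb PHOX2A, HAND1 and HAND2 had 1 peak each and TBX2 had 3, and with 100 kb TBX2 had 7 and PHOX2A 3. The furthest peak counted was that of HAND2 at 38.76 kb. The nearest one left out lay 58.20 kb from TBX2, within its neighbor TBX4, with 24 reads and an enrichment of 6.63-fold (−log10 q 10.5). Beyond it 3 more peaks lay within 100 kb of TBX2, with fold enrichments of 8.58, 6.47 and 4.51, and PHOX2A gained 1 peak at 64.46 kb with 6.34. HAND2 had its next peak at 117.8 kb with 6.13 and HAND1 at 262.7 kb with 7.21.

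Over all 20037 protein-coding genes, 39.9% had a peak in the gene or up to 50 kb from it, against 4 of the 8 circuit genes. The circuit genes with a peak had 2 or 3 each. At least 2 peaks were found for 4 of the 8, against 17.0% of protein-coding genes, and at least 3 for 2 of the 8, against 7.39%. The circuit genes are short, from 3256 to 29866 bp, and 2 of the 8 exceeded the median protein-coding gene of 24115 bp. Among the 11167 protein-coding genes no longer than the longest of them, 38.5% had a peak. With the gene body alone 1 of the 8 circuit genes had a peak, against 16.0% of protein-coding genes, and with 3 kb it was 2 of 8, against 21.4%. With 10 kb it was 4 of 8 against 25.1%, and with 100 kb 4 of 8 against 50.8%. Counting only peaks whose −log10 q was 5 or more it was 4 of 8 against 33.7%, and among those enriched at least 5-fold 4 of 8 against 37.4%. At 50 kb the share of circuit genes with a peak was near the background, and no test was made of the number of peaks per gene.

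Among 10 other transcription factor genes of the adrenergic state, 7 had a peak within 50 kb, against 39.9% of all protein-coding genes. The 7 genes had 11 peaks in all. Of the 10 genes, 7 were longer than any of the 8 circuit genes, which widens the region searched. The highest fold enrichment was 8.20, in DACH1, a cofactor gene of 429239 bp. HEY1, a Notch target, had a peak 44 bp from the gene with a fold enrichment of 7.71, and KLF7 and SATB1 had peaks within the gene with the same value, KLF7 having 3 peaks. At SOX11, a SOX factor of early neurons, the higher of 2 peaks lay 544 bp from the gene with a fold enrichment of 5.94. KLF13, PBX3 and SIX3 had none.

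Among 12 paralogs of the circuit genes, 4 had a peak within 50 kb, against 39.9% of all protein-coding genes. None of the 4 TFAP2 paralogs had one, as for TFAP2B, and of the 4 GATA paralogs GATA4 alone had one, at 42448 bp with a fold enrichment of 6.27. TBX4 had 6, of which 2 are also counted for TBX2, with a highest fold enrichment of 8.58. TBX3, like TBX2, had a peak close to the gene, at 191 bp with a fold enrichment of 5.56. ISL2 had 2 where ISL1 had none, the higher at 8.90.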

How the data were processed

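The submitters' processing notes name BWA 0.7.17, MACS2 2.2.7 and the build hg38, whereas the deposited peak names carry the word macs3. Whether the input was the control and which q threshold was set are not given in the sources used here. For each peak the authors deposited a fold enrichment at the summit, the −log10 of the p and q, and a score, which at 6182 of the 6183 peaks equalled the −log10 q times 10 cut to a whole number.

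The files give no total reads. ChIP reads and background at each summit were solved from the fold enrichment and −log10 p with the Poisson formula of MACS. Weights of 1 read from 0.6 to 1.6 were scanned in steps of 0.01. With 0.98 the pileup was whole, within 0.01 reads, at 98.6% of the peaks, and the other 84 were left unsolved. In a test on 1000 simulated peaks, the reads were recovered at 100% of them. Those peaks were made with the same formula and weight. The test therefore covers the solving step and not whether the deposited values arose in this way. Poisson intervals at 95% cover counting error only.

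Genes, promoter windows and their sequences came from RefSeq GRCh38.p14, the build of hg38, and all listed genes were matched by symbol. All positions are counted from 1. Protein sequences were not used. The rule for the genes named took the 8 circuit genes, all their peaks, the nearest gene of each, the antisense genes, and up to 5 genes with a peak from each other list. The genes and lists were chosen with earlier results of these data known, as were the rules on peaks within 3 kb and on promoter windows. The alternatives were other distances, stricter peaks, summits, nearest genes, rank by −log10 q, and all RefSeq genes. With 1 library, no gene of like pattern across samples could be named. The scripts ran in Python 3.11.15 with scipy 1.17.1, numpy 2.4.6, matplotlib 3.10.9 and pandas 2.3.3.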

Additional observations from a re-analysis of the deposited data

How the results depend on the processing

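The count of circuit genes with a peak was 1 with the gene body alone and 2 with 3 kb, and it stayed at 4 with 10 kb, with 100 kb, with peaks of a −log10 q of at least 5, with peaks enriched at least 5-fold and with the summit in place of the peak. The number of peaks, 10, was 1, 4 and 6 with the gene body alone, 3 kb and 10 kb. It was 5 with a −log10 q of at least 5, 5 among peaks enriched at least 5-fold, 3 where the circuit gene had to be the nearest gene and 6 where it had to be the nearest protein-coding gene. The share of protein-coding genes with a peak, 39.9%, was 16.0%, 21.4%, 25.1% and 50.8% with the gene body alone, 3 kb, 10 kb and 100 kb, 33.7% with a −log10 q of at least 5, 37.4% among peaks enriched at least 5-fold and 27.0% over all RefSeq genes. Shorter or longer regions, fewer peaks and other genes produce these moves by construction. The highest HAND1 peak, ranked 518 by its fold, was at 702 by −log10 q and at 729 by −log10 p, a rank added after seeing the data. The median fold of the circuit peaks, 5.04, was 7.29 both among peaks of a −log10 q of at least 5 and among peaks enriched at least 5-fold, where the medians of the whole list were 7.52 and 7.23. The paralogs with a peak, 4, were 1 with the gene body alone, an alternative likewise added after seeing the data. The count of other adrenergic genes with a peak stayed within 1.5 times under its alternatives. No paired analysis was possible because the series has a single ChIP library. No value could be checked in a replicate, and 8 to 24 reads per summit limit the order of the peaks.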
